A study of Mus musculus with 2 samples.

Results

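The cytosolic ribosomal protein genes were taken as the array probes whose gene name is Rpl or Rps followed directly by a digit, or Rplp0, Rplp1, Rplp2 or Rpsa. The names of S6 kinases (Rps6k), of the binding protein gene Rps19bp1, of pseudogenes and of unnamed loci were left out. This gave 81 genes with 135 probes, out of 27962 gene names with 41174 probes. Of the 135 probes, 131 were tested. Probes of Rps19 (A_52_P129131), Rps2 (A_52_P182478) and Rps6 (A_52_P531325) were not well above background in either channel on either array. A probe of Rpl22l1 (A_51_P218814) lost its spot as an outlier on array 1 and had a log2 ratio of 1.22 on array 2. Every gene kept at least 1 tested probe.

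The study set autoreactive immature B cells against non-autoreactive ones from mouse bone marrow. Both groups carry 3-83Igi, a rearranged antigen receptor inserted at the immunoglobulin loci, which binds class I proteins of H-2b mice. The autoreactive cells came from BALB.B mice of genotype 3-83Igi,Rag1-/-,H-2b and were labelled with Cy5, and the non-autoreactive cells came from BALB/c mice of genotype 3-83Igi,H-2d and were labelled with Cy3. All mice were untreated, and their ages are not stated. In each group pooled cells were sorted as positive for B220 and negative for CD23, CD43 and IgD. RNA of both groups was hybridised together on each of 2 Agilent mouse arrays, with the dyes the same way round on both. Strain, H-2 haplotype, the Rag1 disruption and the dye all follow the groups, so that none of them can be told apart from autoreactivity. The labels number the autoreactive pools and not the non-autoreactive ones, so p-values measure the spread between these 2 arrays, which may be technical.

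Ribosomal proteins make up, with ribosomal RNA, the small and the large subunit of the ribosome. The small subunit (Rps proteins) reads the messenger RNA and the large subunit (Rpl proteins) joins the amino acids, while the acidic stalk (Rplp0, Rplp1 and Rplp2) recruits the translation factors. Their messenger RNAs are among the most abundant of growing lymphoid cells, and most of them begin with a run of pyrimidines, the terminal oligopyrimidine motif, through which the mTOR pathway controls their translation. The antigen receptor acts on that pathway in B cells, and B cells enlarge and make ribosomes when they are activated.

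Start sites are shown for 5 of the genes with the highest log2 ratios and for 2 paralogues that did not share them, so that their pyrimidine runs can be compared. Each line holds 60 bases before the annotated start of transcription and 30 bases from it, 5′ to 3′ on the gene's own strand, from RefSeq on GRCm38.p6, with the longest unbroken run of C and T, or each of them where equally long, in capitals. Rps27, chr3:90213619-90213708, minus strand: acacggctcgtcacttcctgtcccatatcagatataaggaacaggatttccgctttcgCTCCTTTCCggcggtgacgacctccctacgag
Rpl5, chr5:107900468-107900557, plus strand: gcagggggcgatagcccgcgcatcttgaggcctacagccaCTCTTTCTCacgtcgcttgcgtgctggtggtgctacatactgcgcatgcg
Rps7, chr12:28635924-28636013, minus strand: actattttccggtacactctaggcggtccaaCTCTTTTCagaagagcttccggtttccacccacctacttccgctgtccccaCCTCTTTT
Rpl12, chr2:32961652-32961741, plus strand: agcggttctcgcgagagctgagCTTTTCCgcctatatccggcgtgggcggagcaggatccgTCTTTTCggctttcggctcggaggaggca
Rps28, chr17:33824533-33824622, minus strand: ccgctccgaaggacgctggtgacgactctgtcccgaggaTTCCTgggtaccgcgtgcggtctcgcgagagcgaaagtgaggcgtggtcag
Rps27l, chr9:66946026-66946115, plus strand: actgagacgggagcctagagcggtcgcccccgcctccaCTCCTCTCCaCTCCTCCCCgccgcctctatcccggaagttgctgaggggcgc
Rpl3l, chr17:24727766-24727855, plus strand: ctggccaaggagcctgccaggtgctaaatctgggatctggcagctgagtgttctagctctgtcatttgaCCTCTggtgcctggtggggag
The run is 9 bases long in Rps27, where it spans the start, and 9 bases in Rpl5, where it lies before the annotated start. Rps7 has 2 runs of 8 bases and Rpl12 2 of 7 bases, in both genes 1 before the start and 1 after it, and Rps28 has 1 of 5 bases. The second run of Rps7 ends where the printed bases end, so it may be longer. Rps27l has 2 runs of 9 bases before the start, and Rpl3l, a paralogue expressed in striated muscle, 1 of 5 after it. A long run is therefore found on both sides of this small set, and its absence near an annotated start says only that these letters are not in this window.

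RefSeq promoter windows of 300 bases (250 before the start and 50 after it) were at hand for 60 of the 81 genes. An uninterrupted run of at least 8 C or T letters within 30 bases of the start, read on the transcript's strand, was present in 33 of the 60 genes (55.0%), against 25.8% of 27025 genes. The letters TCTTTC on the same strand in that window were found in 12 of the 60 (20.0%), against 2.79% of all genes. Over the whole window and on either strand, CCGGAAG, the core letters bound by ETS family factors, was found in 23 of 60 (38.3%, against 9.93%) and AAGATGG, the core of the YY1 site, in 10 (16.7%, against 7.28%). TATAAA in the 40 bases before the start was found in 1 gene (1.67%, against 2.78%). These matches describe the letters, not bound sites.

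Ratios are given as log2 of autoreactive over non-autoreactive, after normexp background correction and a loess curve fitted within each array, which is meant to bring the middle of the spots at each brightness to 0. Directions are therefore relative to that curve. Levels are log2 normalised intensities per channel, each error is the standard error from limma (SE, n = 2 arrays), and called means an adjusted p of at most 0.05 over the 22632 probes tested. Of the array's probes 55.0% were tested, and no member probe was saturated. H2-Ea, a class II gene that H-2b mice do not transcribe, had log2 ratios of -5.22 and -5.26, the direction that the labelled dyes give. Of 14 probes to B cell markers, all were tested, 1 was called as higher and 5 as lower. They had medians of -0.54 on array 1 and -0.48 on array 2 and 2 probes above 0, so that the B cell markers were for the most part lower in autoreactive cells. The lowest were the probes of Ms4a1, the gene of the surface protein CD20, at -3.46 and -3.61, and both Cd79b (0.69, not called) and Blk (0.69, called) were above 0. Markers of other cell types had lower medians on array 2 than on array 1. They were -0.81 and -0.14 for T and NK cells, -0.67 and 0.060 for myeloid cells, -1.16 and -0.73 for plasmacytoid dendritic cells and -0.47 and -0.22 for plasma cells, while those of erythroid cells were -0.34 and -0.52. The plasma cell probes went opposite ways, with Sdc1 called as higher (1.94), both probes of Igj called as lower (-0.89 and -1.65) and Prdm1 not called (0.19). The part of these cell types in the values below was not tested.

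Messenger RNAs of cytosolic ribosomal proteins were measured higher in autoreactive cells across both subunits. The median log2 ratio of the 131 probes was 0.58, or 1.50-fold (0.66 on array 1 and 0.55 on array 2), against 0.0059 for all probes tested. The members are also brighter, with a median log2 brightness of 15.9 against 10.1 for all probes tested. Probes outside the members had median ratios of 0.11 at a brightness of 15 to 16, 0.53 at 16 to 16.5 and 0.70 above. Of these, 9.27%, 38.4% and 49.2% were called as higher. In bulk RNA such as this, a different number of cells of a type and a different amount of RNA per cell cannot be told apart. Limma called 61 of the 131 as higher (46.6%), where 3.08% of all probes tested were called as higher, and 1 as lower, where 2.14% of all were. The 61 belong to 53 of the 81 genes. The levels of the groups did not overlap, with autoreactive cells the higher, for 100 of the 131 probes (24.4% of all probes tested). They did not overlap the other way round for 4 (21.3% of all). Of the members, 122 had a mean ratio above 0, and 111 were above 0 on both arrays. At least 2-fold higher were 36 members on array 1 and 29 on array 2, with 24 on both, where 188 of all probes tested (0.831%) were so on both.

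How many members were called depended on how the arrays were normalised. With the authors' deposited ratios 7 members were called as higher and none as lower by limma (59 and 3 at an unadjusted p under 0.05), against 1.89% and 1.78% of all probes, and the median was 0.34 with 117 members above 0. A narrower loess span of 0.1, chosen after seeing the data, gave 30 higher and 1 lower (2.6% and 2.32% of all probes) and a median of 0.34. Fitting the channels separately, without pairing by array, gave 24 higher and none lower in limma (0.561% and 0.384% of all), with 79 and 1 at an unadjusted p under 0.05. Centring each array on its median without a curve put the members at 1.91 and all tested probes at 0.54. Probes outside the members with a mean log2 brightness of 15 to 16 were then at 1.33, and those of 16.5 and above at 2.16. The members' median was thus above that of all probes under each of these scalings, while its size ranged from 0.34 to 1.91. The same 7 probes were called as higher with loess, with the deposited ratios, with the narrower span and with separate channels.

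**Figure D1:**
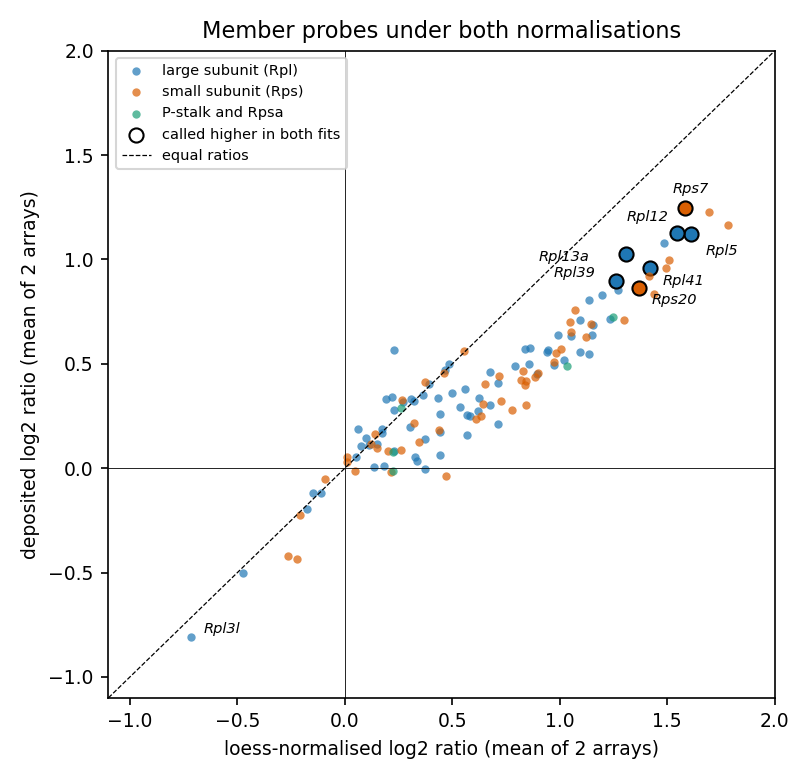
Log2 ratio of each of the 131 tested probes after loess (horizontal axis) and as deposited (vertical axis), each the mean of 2 arrays. Colours mark the subunit, large points outlined in black are the 7 probes called as higher in both fits, and the dashed line marks equal ratios. At the high end the points lie below the dashed line, so that their deposited ratios are the smaller ones.

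The plot of both normalisations shows that the probes with the highest ratios lost most between them. Rps14, for example, stood at 1.78 after loess and at 1.17 as deposited. Rpl3l was at -0.72 and -0.81, and the dimmest probes of Rps18 (A_51_P274544) and Rps15a (A_52_P491433) were at -0.22 and -0.26 after loess and at -0.44 and -0.42 as deposited.

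The 7 probes called in these 4 settings belong to Rpl5, Rpl12, Rpl13a, Rpl39, Rpl41, Rps7 and Rps20. Rpl5 encodes the protein that carries the small ribosomal RNA into the large subunit and, when free, binds Mdm2. Its level was 17.45 and 17.47 in autoreactive cells and 15.89 and 15.81 in non-autoreactive cells. The ratios were 1.56 and 1.66, a mean of 1.61 ± 0.12 or 3.05-fold (limma adjusted p = 0.00355, and 1.12 with adjusted p = 0.0234 as deposited). The arrays thus agreed within 0.1 for Rpl5, and the groups lay well apart.

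Rps7, a small subunit protein that also binds Mdm2, had levels of 16.91 and 17.01 in autoreactive cells and of 15.50 and 15.25 in the others. Its ratios were 1.41 and 1.76, a mean of 1.58 ± 0.14 (limma adjusted p = 0.00569, 1.25 as deposited). Rpl12, which sits at the base of the stalk, had levels of 17.29 and 17.22 against 15.78 and 15.64, and ratios of 1.51 and 1.58. Its mean was 1.54 ± 0.12 (limma adjusted p = 0.00392, 1.12 as deposited). For all these genes the autoreactive channel of each array was above the non-autoreactive channel of both. The same held for 100 of the 131 member probes and for 24.4% of all probes tested.

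Rpl41, the shortest protein of the ribosome, had levels of 17.52 and 17.34 against 15.99 and 16.04 and a mean ratio of 1.42 ± 0.13 (limma adjusted p = 0.00606). Rps20, in the head of the small subunit, had levels of 17.46 and 17.39 against 16.15 and 15.97 on its brighter probe (A_52_P5210), and a mean of 1.37 ± 0.12 (limma adjusted p = 0.00574). Rpl13a and Rpl39 lie outside the rule for named genes and were singled out after their values were seen. Rpl13a, which also takes part in translational silencing after interferon gamma, had levels of 16.41 and 16.69 against 15.27 and 15.22 and a mean ratio of 1.31 ± 0.14. Rpl39, which lines the tunnel through which the new protein leaves, had levels of 16.73 and 16.85 against 15.59 and 15.47 and a mean of 1.26 ± 0.13. Over the 7 probes the adjusted p ranged from 0.00355 to 0.00886 with loess, from 0.0232 to 0.0469 as deposited and from 0.0202 to 0.0385 with separate channels.

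**Figure D2:**
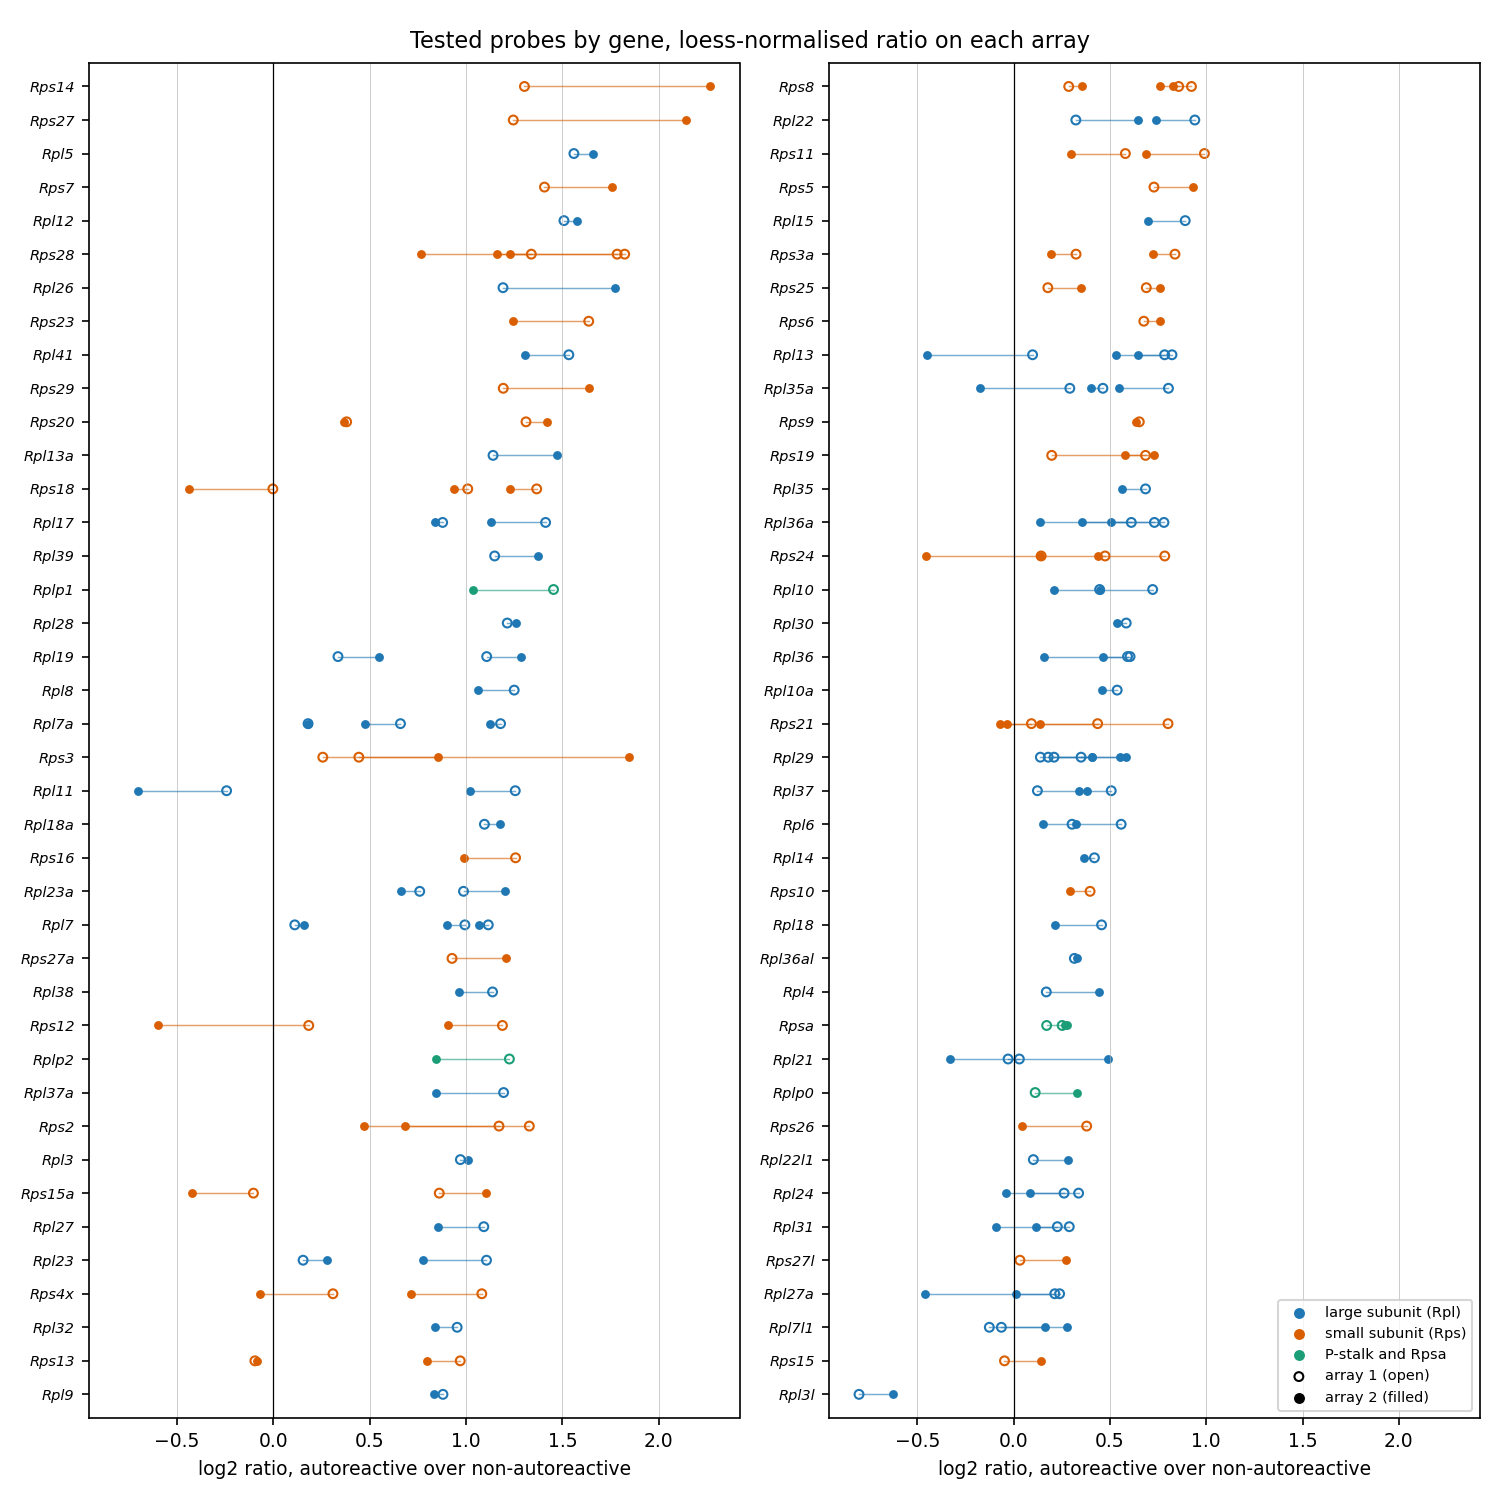
Log2 ratio of the tested probes of 80 of the 81 genes, the other not being reported here, on array 1 (open circles) and array 2 (filled circles), joined by a line for each probe, with genes ordered by their highest mean ratio and coloured by subunit. Most probes lie to the right of 0 on both arrays, from Rps14 with 1.30 and 2.27 at the top to Rpl3l with -0.80 and -0.63 at the bottom.

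In the plot of ratios by gene the lines of most probes are short against the spread between genes. Over the 131 probes array 1 and array 2 correlated with r = 0.79, a description, as the probes share both arrays and their dyes. The median absolute difference between the arrays was 0.225, and 82 of the 131 ratios were higher on array 1. The SD of the members' ratios was 0.49 on array 1 and 0.56 on array 2, against 0.34 and 0.48 for all probes tested. A single probe differed by more than 1 between the arrays, that of Rps3 (A_51_P318642). Rps3, a protein at the messenger RNA entry with a role in DNA repair, had levels of 16.93 and 17.25 against 16.49 and 15.40, and ratios of 0.44 and 1.85. It was not called (1.15 ± 0.31, limma adjusted p = 0.101).

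Small subunit genes had 28 of 52 tested probes called as higher and none as lower, with a median of 0.72 (0.41 as deposited, with 2 called). The highest was Rps14, a protein of the platform where messenger RNA leaves, whose levels were 17.54 and 17.80 against 16.23 and 15.54. Its ratios of 1.30 and 2.27 gave a mean of 1.78 ± 0.23 (limma adjusted p = 0.0140, adjusted p = 0.0887 as deposited). Most of the difference between its arrays lay in the non-autoreactive channel.

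Rps27, a zinc finger protein of the small subunit, followed the same course, with levels of 17.30 and 17.50 against 16.05 and 15.36 and ratios of 1.25 and 2.14. Its mean was 1.69 ± 0.22 (limma adjusted p = 0.0140, 1.23 with adjusted p = 0.0694 as deposited). Rps23, a protein of the decoding centre, had levels of 17.91 and 17.76 against 16.27 and 16.52 and a mean ratio of 1.44 ± 0.15. Rps29 had levels of 17.45 and 17.44 against 16.26 and 15.80 and a mean of 1.42 ± 0.15. None of Rps27, Rps23 and Rps29 was called with the deposited ratios. Their levels after loess did not overlap between the groups, which was so for most members.

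Rps6, the protein that S6 kinases phosphorylate, was among the lowest of the called probes, with levels of 16.37 and 16.34 against 15.70 and 15.58 and a ratio of 0.72 ± 0.12 (limma adjusted p = 0.0306). Rps19, the gene most often mutated in Diamond-Blackfan anaemia, had 0.63 ± 0.12 on the probe that was called (limma adjusted p = 0.0444) and 0.46 on its other tested probe. Low called probes of this subunit were also those of Rps3a (0.78), Rps25 (0.73) and Rps9 (0.64). Their ratios differed little between the arrays, by at most 0.12, and as deposited the 5 called probes of these genes ranged from 0.25 to 0.44 with none called.

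Large subunit genes had 31 of 74 tested probes called as higher and 1 as lower, with a median of 0.52 (0.34 as deposited, with 5 called). Besides Rpl5, Rpl12 and Rpl41, Rpl26, which borders the exit tunnel and also regulates the message of p53, had levels of 17.06 and 17.31 against 15.87 and 15.53. Its ratio was 1.48 ± 0.17 (limma adjusted p = 0.0101), and as deposited it was 1.08 (adjusted p = 0.0509). Rpl28 had levels of 17.09 and 17.17 against 15.88 and 15.91 and ratios of 1.21 and 1.26, a mean of 1.24 ± 0.12 (limma adjusted p = 0.00725, adjusted p = 0.0682 as deposited). The arrays of Rpl28 were within 0.05 of each other.

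The lowest called probes of the large subunit were those of Rpl35 (0.62), Rpl35a (0.68), Rpl13 (0.68 and 0.71) and Rpl23a (0.71), which near the exit tunnel binds factors that act on the new protein. Their adjusted p lay between 0.0314 and 0.0477 in limma, close to the threshold. The medians of the subunits, 0.72 and 0.52, go with median brightnesses of 16.2 and 15.8, and their difference was not tested.

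Of the probes under the names of stalk genes, those of Rplp1 and Rplp2 were called as higher and that of Rplp0 was not. Rplp1 had levels of 17.38 and 17.27 against 15.92 and 16.23 and a ratio of 1.25 ± 0.15 (limma adjusted p = 0.0108), and Rplp2 had levels of 17.65 and 17.35 against 16.42 and 16.51 and a ratio of 1.04 ± 0.14 (limma adjusted p = 0.0173). Rplp0, which anchors both to the ribosome, had levels of 15.24 and 15.27 against 15.13 and 14.93 and a ratio of 0.22 ± 0.13 (limma adjusted p = 0.352). Its probe, the sole member probe with repeated spots, gave 0.11 with an SD of 0.030 over 8 spots on array 1 and 0.33 with an SD of 0.055 over 10 spots on array 2. The difference between its arrays was thus larger than the spread between spots.

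The Rplp0 probe was made to another sequence record than RefSeq's, and the files place it on chromosome 8, while RefSeq has Rplp0 on chromosome 5. RefSeq lists Arbp as an older name of Rplp0, and the 2 probes under that name, which the rule does not include, had ratios of 0.90 (limma adjusted p = 0.0164) and 1.35 (limma adjusted p = 0.00698). The gene that both names stand for thus had 2 probes called as higher and 1 that was not. Rpsa, a small subunit protein also known as the laminin receptor precursor, had ratios of 0.26 (limma adjusted p = 0.263) and 0.23 (limma adjusted p = 0.327), and as deposited its brighter probe was at -0.013.

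Paralogues with an l at the end of their name were not called as higher. Of 6 tested probes of 5 such genes none was called as higher and 1 as lower (1 each at an unadjusted p under 0.05), with a median of 0.11, while 61 of the other 125 members were called as higher, with a median of 0.62. The 6 probes had a mean log2 brightness of at most 14.95, and no member of any name below 15 was called as higher. The lack of such calls is therefore not particular to the paralogues. Rpl3l was the lower one. Its levels were 9.03 and 8.70 in autoreactive cells and 9.83 and 9.32 in the others, with ratios of -0.80 and -0.63 and a mean of -0.72 ± 0.13 (limma adjusted p = 0.0336, -0.81 with adjusted p = 0.0594 as deposited). Rpl3, its parent gene and a protein of the catalytic centre, had ratios of 0.97 and 1.01, a mean of 0.99 ± 0.12 (limma adjusted p = 0.0119).

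The other paralogue probes that could be tested had ratios between 0.051 and 0.32. Rps27l, which p53 induces, was at 0.15 ± 0.13 where Rps27 was at 1.69. Rpl36al was at 0.32 ± 0.12, and the 3 probes of Rpl36a were at 0.37 to 0.62, none of them called. Rpl7l1 was at 0.075 and 0.051, and Rpl7 at 0.14, 0.95 and 1.09. The probe of Rpl22l1 that could be tested was at 0.19, with the autoreactive channel not well above background on array 2. The probe of Rpl22l1 that could not be tested, to its RefSeq transcript, was bright on array 2, with levels of 16.72 against 15.49 and a ratio of 1.22 (0.91 as deposited). Rpl22, whose loss raises Rpl22l1 in other settings, was at 0.48 and 0.84. These paralogue probes had a median brightness of 11.9, against 15.9 for the other members, and whether their ratios differ at equal brightness was not tested.

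Several probes were tested for 38 genes, and the range between the lowest and the highest had a median of 0.456. Probes lay on both sides of 0 for 8 genes and were more than 1 apart for 4 of them. Rpl11, a partner of Rpl5 in binding Mdm2, had 1.14 ± 0.13 (limma adjusted p = 0.0101) on a probe to its RefSeq transcript and -0.47 ± 0.15 on a probe to a complementary DNA clone (limma adjusted p = 0.146). Rps12 had 1.05 and -0.21, Rps15a 0.98 and -0.26, and Rps18 1.30, 0.97 and -0.22, where none of the values below 0 was called.

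In 33 of the 38 genes the highest ratio was that of a brighter probe than the lowest. Every one of the several probes was called as higher for Rpl17, Rpl23a and Rps28. Over all members, 58 of 112 probes made to a RefSeq transcript of the NM series were called as higher (median 0.68, median brightness 15.95). Of 19 made to other records 3 were (median 0.060, median brightness 10.5). RefSeq holds 315 pseudogene entries named after these genes, and 35 of the member probes are listed with a model transcript as well, so that signal from near-identical copies cannot be separated from that of the gene.

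**Figure D3:**
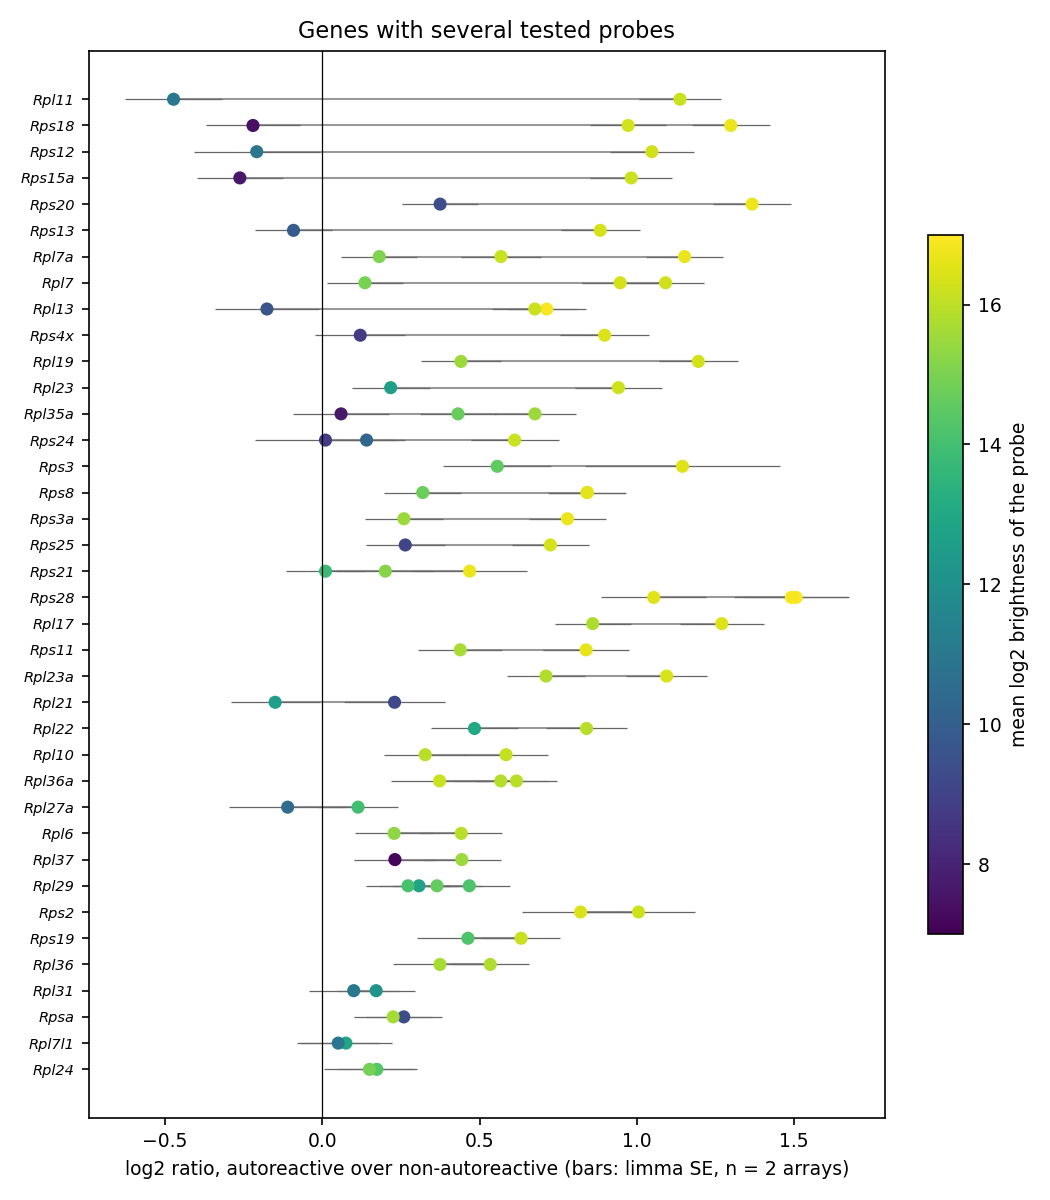
Mean log2 ratio of each tested probe of the 38 genes with several probes, with limma standard errors (n = 2 arrays) and genes ordered by the range of their probes. The colour gives the probe's mean log2 brightness, and in Rpl11, Rps18, Rps12 and Rps15a the dark, dimmer probes lie below 0 and the light, brighter ones near 1.

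The plot of genes with several probes shows the same order in most rows, with the brighter probe to the right. Across all members the ratio went with brightness, r = 0.71 with loess and 0.53 with the deposited ratios, as a description over 131 probes that share both arrays and their dyes. All 61 calls of higher lay at a mean log2 brightness of 15 or more. The median brightness of the members was 15.9, against 10.1 for all probes tested.

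Other bright probes also had ratios above 0. At a brightness of 16.5 and above, 28 member probes had a median of 1.15 with 26 called as higher (92.9%), and 65 other probes had a median of 0.70 with 32 called (49.2%). From 16 to 16.5 the medians were 0.94 for 29 members and 0.53 for 138 others, and 82.8% and 38.4% were called. From 15 to 16 they were 0.47 for 32 members and 0.11 for 561 others, and 34.4% and 9.27% were called. With the deposited ratios the others were at 0.20, 0.15 and -0.064 in these bands, and the members at 0.67, 0.51 and 0.26.

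The gap between members and other probes of like brightness varied less between the normalisations than the ratios did. A loess curve shifts probes of like brightness on an array by a like amount, so that this follows in part from the method. The gap was 0.44, 0.41 and 0.36 with loess in these bands, 0.47, 0.36 and 0.32 as deposited and 0.44, 0.37 and 0.32 with the narrower span. Between 14 and 15 it was 0.36 with loess (13 members at 0.32, and 1128 others at -0.045) and 0.38 as deposited. Below a brightness of 14 the gap was smaller, at 0.11 from 10 to 14 (15 members) and 0.078 below 10 (14 members), and no member there was called as higher.

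**Figure D4:**
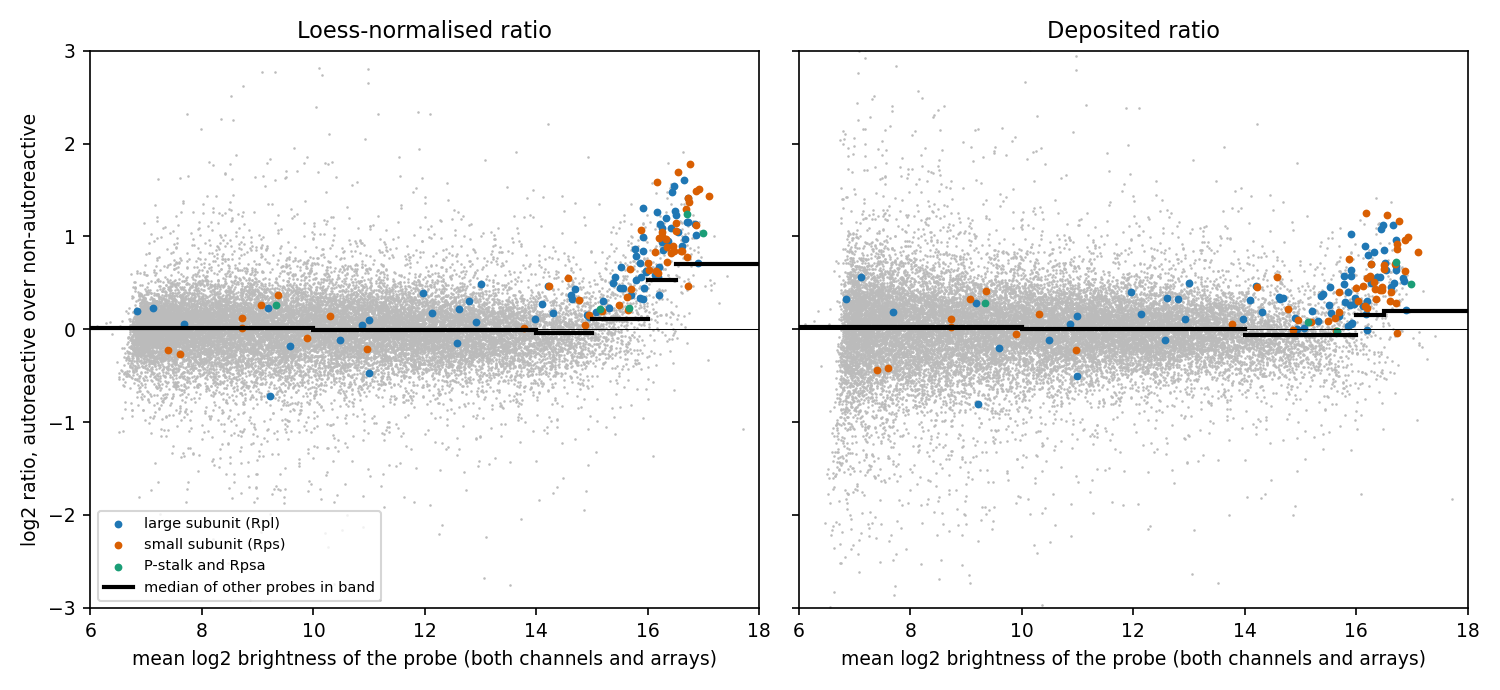
Log2 ratio of autoreactive over non-autoreactive against the mean log2 brightness of the probe, after loess (left) and as deposited (right). Coloured points are the 131 member probes by subunit, grey points the other tested probes, and black bars the medians of the other probes within each band of brightness; probes beyond 3 on either side are not drawn. Member points lie mostly above the black bars from a brightness of 14 on, and both rise at the bright end with loess.

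The plot of ratio against brightness also shows that the bars of the other probes stand at 0.53 and 0.70 in the brightest bands with loess and at 0.15 and 0.20 with the deposited ratios. The scanner read each array at a high and a low gain and took bright spots from the low-gain scan. In the autoreactive channel 105 of the 135 member probes (77.8%) came from that scan on each array, and in the non-autoreactive channel 84 (62.2%). Among all probes these shares were 7.09% and 1.59% on array 1 and 6.52% and 1.77% on array 2.

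Where both channels came from the low-gain scan on both arrays, the median was 0.90 for 79 members, 58 of them called as higher. For 530 other probes it was 0.16, with 101 called. Where the autoreactive channel alone did, the median was 0.20 for 17 members with none called and 0.0075 for 1788 others with 91 called. Where neither did, it was 0.10 for 27 members with none called and 0.0029 for 19576 others with 420 called. The part of the gain and of brightness in the members' ratios was not tested.

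Members near the H-2 genes, which differ between the strains, were looked at apart. Rps28, with probes from position 31897015 on chromosome 17, and Rps18, from position 32030069, lie within 5 Mb of the H2-Ea probe at 32421794, in positions of the deposited files, which name no build. Of their 6 probes 5 were called as higher with loess (83.3%, against 46.6% of the members and 3.08% of all probes), with a median of 1.18. None was called with the deposited ratios. The median brightness of the 6 was 16.6. Among all members, 82.8% were called at a brightness of 16 to 16.5 and 92.9% above that, so such a share is not particular to this region. The probe A_52_P55271 of Rps28 had levels of 17.76 and 17.56 against 15.97 and 16.33 and a mean ratio of 1.51 ± 0.17 (limma adjusted p = 0.00954), and its other probes were at 1.49 and 1.05. For Rps18 and Rps28 a difference of that region between the strains cannot be told apart from autoreactivity. Elsewhere on chromosome 17, 1 of 9 member probes was called as higher (11.1%) and 1 as lower, with a median of 0.37 and a median brightness of 15.6. On the X chromosome 2 of 6 were called as higher (33.3%), with a median of 0.59 and a median brightness of 16.1. The part of brightness in these counts was not tested.

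Mitochondrial ribosomal proteins belong to a separate ribosome, and their share of calls was near that of all probes. Of 116 tested probes limma called 2 as higher (1.72%, against 3.08% of all) and none as lower (2.14% of all), where 8 and 2 had an unadjusted p under 0.05, with a median of 0.036 and a median brightness of 12.7. Both calls were of Mrps26 (0.71 and 0.69, limma adjusted p = 0.0333 and 0.0323), and none was called as deposited. Mrpl49 followed with 0.41 and was not called.

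Other genes tied to translation in the cytosol went partly with the members. A list of translation factors was limited to those with terminal oligopyrimidine messages, a feature that most members share. It also holds Gnb2l1 and Tpt1, and it does not stand for translation factors in general. Of 33 probes to this list 7 were called as higher (21.2%, against 3.08% of all) and none as lower, with a median of 0.35 (1 called as deposited). Limma gave 17 and 0 at an unadjusted p under 0.05. The highest was Gnb2l1, which encodes the scaffold protein Rack1 of the small subunit, with ratios of 1.44 and 1.69 and a mean of 1.57 ± 0.13 (limma adjusted p = 0.00467, and 1.14 with adjusted p = 0.0269 as deposited). The elongation factor gene Eef1b2 was at 1.05 (limma adjusted p = 0.0102) and Tpt1, another gene with a pyrimidine-rich start, at 0.93 (limma adjusted p = 0.0291).

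Of 5 probes to genes that fuse a ubiquitin-like protein to a ribosomal protein, 3 were called as higher (60%, against 3.08% of all). Rps27a, which is a member as well, was at 1.07 (limma adjusted p = 0.0126). It stood at 0.76 as deposited, where none of the 5 was called. The median brightness of the probes on the translation factor list was 14.8 and that of the fusion gene probes 16.6. At a brightness of 16.5 and above, 49.2% of the probes outside the members were called as higher.

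Ribosome biogenesis and ribosomal RNA transcription genes had no probe called by limma in either direction among 78, where 3.08% of all probes were called as higher and 2.14% as lower, a difference of few probes in a list of this size. At an unadjusted p under 0.05 there were 5 higher and 3 lower, none was called with the deposited ratios or separate channels, and the median was 0.056. The largest ratios there were those of the nucleolar genes Nol5a (-0.60) and Npm1 (0.58) and of Ubtf, a factor of ribosomal RNA transcription (-0.51). Of 45 probes to the mTOR and S6 kinase pathway 3 were called as lower (6.67%, against 2.14% of all) and none as higher (3 at an unadjusted p under 0.05 in limma), with a median of -0.035. Rps6ka4 was at -0.96 (limma adjusted p = 0.0369) and Rps6ka1 at -0.84 (limma adjusted p = 0.0383), both kinases of the branch downstream of ERK, with -0.65 and -0.60 on array 1 and -1.27 and -1.08 on array 2. Rps6kl1 was at least 1.65-fold lower (limma adjusted p = 0.0348), its autoreactive signal having stayed under the limit for well above background on both arrays, and this bound equals the measured ratio. As deposited Rps6kl1 alone remained called.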

How the data were processed

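Gene expression was measured on 2 two-colour Agilent arrays with 43379 gene spots each, from 0.5 ug of amplified RNA per sample, per the labels. Per the file headers, Agilent Feature Extraction 9.5.1.1 gave the spots' mean intensity and the local background's median intensity for each dye. Its log10 ratio (Cy5 over Cy3), also deposited, comes after that program's background subtraction and dye normalisation, per the file headers. The series' own table repeats these ratios (largest difference 5e-10). Other columns of the deposited files used here are the program's flags of 0 or 1 for spots well above background, saturated spots and outliers. The program scales spots that are bright at the high gain up from the low-gain scan, per the file headers, which bears on most member probes. In the file of array 2, 1 line break was repaired before reading.

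Intensities were corrected with normexp (offset 50) and normalised by loess (span 0.3, control and outlier spots at weight 0) in limma 3.58.1 under R 4.3.3. After outlier spots were dropped, repeated spots were averaged per probe. Probes entered the test if at least 1 channel was well above background on array 1 and at least 1 on array 2. Their log2 ratios were set against 0 by lmFit and eBayes in a two-sided test, adjusted by Benjamini-Hochberg over 22632 probes. With 1 residual and 5.01 prior degrees of freedom, the spread of all probes weighs most in each SE, and the number of arrays limits the precision. Channel levels are those after loess and Aquantile scaling, open to dye bias, and a bound takes as the dim level the probe's own signal or the lowest one well above background, whichever was higher. The limma fit alone was tried on simulated log2 ratios, drawn independently around 0 with some probes shifted by known amounts. These held no dye bias and no trend with brightness, so the simulation does not bear on either.

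The members, the lists and the markers were chosen with earlier results of these data known. Named members are the 12 highest and 12 lowest called probes, the 4 highest and 4 lowest of all, Rpl28, Rps27, the stalk genes and Rpsa, paralogues, probes that differ by more than 1 between arrays, genes with probes more than 1 apart on both sides of 0, and H-2 region members, with up to 3 probes for each other list. Some genes that this rule names are not reported here. A promoter match was sought by symbol, and 80 of 81 symbols were found in RefSeq (GRCm38.p6), Rps3a being the exception. Alternatives were no background correction, normexp offset 16, the deposited ratios, median centring, other filters on dim probes, a trended and robust variance, separate channels, the brightest probe per gene and each array alone. A loess span of 0.1 and centring on the tested probes were added after seeing the data.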

Additional observations from a re-analysis of the deposited data

How the results depend on the processing

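The count of members called as higher was 61 of 131. It was 120 with median centring, 7 with the deposited ratios, 24 with separate channels, 30 with a span of 0.1 and 49 of 81 with the brightest probe per gene, and between 54 and 63 of 130 to 134 in the other settings. Median centring also called 107 of 116 mitochondrial ribosomal protein probes and 68 of 78 ribosome biogenesis probes as higher. Its count of 120 therefore does not set the members apart. The count called as lower was 1, and 0 with median centring, the deposited ratios and separate channels. The median log2 ratio of members was 0.58. It was 1.91 with median centring, 0.34 with the deposited ratios, 0.34 with a span of 0.1 and 0.84 with the brightest probe per gene, and it ranged from 0.55 to 0.66 with 1 array left out, where 1 array allows no test. Changing sign were 1 probe each of Rpl11 (0.17) and Rps12 (0.43) with median centring, and the brighter probe of Rpsa with the deposited ratios (-0.013) and with a span of 0.1 (-0.012). The causes of these shifts were not tested. Of 46 named probes, 33 of them called, calls were lost for 28 with the deposited ratios, 19 with separate channels, 15 with a span of 0.1, 7 with offset 16, 6 with no filter on dim probes, 3 with the brightest probe per gene and 1 with median centring, which added 8. All 46 kept direction and side of the threshold with no background correction, a trended and robust variance and centring on the tested probes. Levels of dim members near the lowest signals well above background, as for Rpl22l1, limit the size of their ratios.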

Other observations

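Some bright probes outside the rule also carry a ribosomal protein in their description, under clone or model names. Of 203 other probes with a mean log2 brightness of 16 or more, 13 are described in this way, and their median log2 ratio was 0.80, against 0.56 for the rest of these bright probes. The difference was not tested.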
